A study of Mus musculus with 6 samples.

Results

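The replication-dependent histone genes were taken as every row of the expression table whose name begins with Hist1h, Hist2h, Hist3h or Hist4h. This gave 70 of the 51912 genes in the table, namely 6 genes for H1, 20 for H2a, 19 for H2b, 12 for H3 and 13 for H4. GENCODE lists 3 of them as pseudogenes (Hist1h2aj, Hist1h2al and Hist3h2bb-ps), and the rule also takes in genes known from the testis, such as Hist1h1t. RNA had been sequenced in 6 libraries of B16F10, a pigmented mouse melanoma cell line. The 3 WT libraries (1, 2 and 3) carry the genotype wild type, and the 3 A10KO libraries (1, 13 and 14) carry ANXA10-/-, a knockout of the gene for annexin A10, from a family of proteins that bind membranes with calcium. The labels give no treatment or time, and they do not say whether the numbers stand for clones or for cultures. The p-values below therefore reflect how far libraries of a group scattered, and that scatter may be technical.

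Core histones H2a, H2b, H3 and H4 form the protein spool of the nucleosome, and H1 binds the DNA that enters and leaves it. Most of their genes lie in clusters of many near-identical copies, are switched on as DNA is replicated, and have no introns. Their messenger RNAs are the best known class in animals that usually lack a poly(A) tail. They end instead just after a short stem-loop, which the stem-loop binding protein SLBP holds and which the U7 small nuclear RNA helps to process. Some of these genes can also give longer, polyadenylated RNAs. Whether these libraries were made from poly(A) RNA or from all RNA is not given in the sources used here.

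The stem-loop was looked for in the members' GENCODE M21 transcripts (GRCm38), in which 68 of the 70 genes were found by identifier. The search used a single 16-base pattern, with a choice of letters at some positions only, so other forms would be missed. A match was present in a transcript of 44 of the 68 members and in 15 other genes, 0.0271% of the rest of the annotation. Below are the sequence forms found among members that reached 1 TPM (a level scaled by transcript length and by library) in at least 3 libraries, 1 gene for each form, on the coding strand from 5′ to 3′ with the paired arms in capitals and the loop in lower case.
Hist1h1c, chr13:23739512-23739527: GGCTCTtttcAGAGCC
Hist1h3c, chr13:23745047-23745062: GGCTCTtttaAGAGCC
Hist1h3g, chr13:23535889-23535904: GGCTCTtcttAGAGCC
Hist1h4h, chr13:23531458-23531473: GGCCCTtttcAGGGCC
Hist1h4i, chr13:22040966-22040981: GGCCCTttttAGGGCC
Hist1h4a, chr13:23760800-23760815: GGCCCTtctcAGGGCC
Hist1h4b, chr13:23757366-23757381: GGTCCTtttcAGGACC
The form shown for Hist1h1c was the commonest, with 24 members, 10 of which reached that level. The arms with GGCCCT or GGTCCT were seen only in H4 members among those matched. In the other 24 members found in GENCODE, no match to the stem-loop pattern lay within the annotated transcript. Hist1h2bc, the member with the highest level, was among these, with an annotated transcript of 2 exons and 1156 bases.

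Promoter windows from RefSeq (GRCm38.p6, 250 bases before to 50 after the start) were found for 59 members. The letters CCAAT, searched on both strands, were in 100% of the windows of H1, H2a, H2b and H3 members, in 25% of those of H4 members, and in 37.4% of all 32851 promoter windows. TATAAA was in 57.6% of the members' windows and in 13.6% of all windows. The octamer ATTTGCAT, the letters of the OCT-factor site known from histone promoters, was in 35.7% of H2b, 38.9% of H2a and 0% of H1, H3 and H4 windows, against 1.74% of all. CCAAT and ATTTGCAT can share letters where they adjoin, and a match is a description of the sequence only. The 250 bases before the start are shown for the members with the highest mean level in H1, H2a and H4, and for Hist1h2ac, whose window reaches across the start of Hist1h2bc on the other strand. RefSeq gave no window for Hist1h2bc. Capitals mark the 3 motifs on either strand.
Hist1h1c, chr13:23738557-23738806, plus strand: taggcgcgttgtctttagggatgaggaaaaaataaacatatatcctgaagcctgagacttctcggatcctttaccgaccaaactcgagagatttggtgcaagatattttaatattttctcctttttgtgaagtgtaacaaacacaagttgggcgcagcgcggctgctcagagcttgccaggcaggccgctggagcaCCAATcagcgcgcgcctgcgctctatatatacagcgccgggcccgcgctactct
Hist1h2af, chr13:23533625-23533874, plus strand: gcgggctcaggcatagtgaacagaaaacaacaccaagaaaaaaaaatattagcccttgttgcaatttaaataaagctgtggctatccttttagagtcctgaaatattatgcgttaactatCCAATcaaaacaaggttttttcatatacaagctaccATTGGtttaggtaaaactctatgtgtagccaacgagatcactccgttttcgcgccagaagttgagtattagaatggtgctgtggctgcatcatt
Hist1h2ac, chr13:23683960-23684209, minus strand: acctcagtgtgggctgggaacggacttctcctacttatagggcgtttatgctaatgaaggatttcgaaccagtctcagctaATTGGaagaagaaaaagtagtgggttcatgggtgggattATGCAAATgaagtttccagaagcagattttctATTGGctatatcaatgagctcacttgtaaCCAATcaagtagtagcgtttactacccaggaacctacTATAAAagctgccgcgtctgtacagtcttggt
Hist1h4i, chr13:22041363-22041612, minus strand: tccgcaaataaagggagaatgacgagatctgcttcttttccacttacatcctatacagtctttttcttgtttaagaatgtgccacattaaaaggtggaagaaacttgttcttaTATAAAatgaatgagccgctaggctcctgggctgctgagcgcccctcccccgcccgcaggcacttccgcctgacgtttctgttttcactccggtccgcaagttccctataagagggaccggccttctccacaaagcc

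The libraries were described by their TPM totals, which ran from 969834 to 985045, and by the 11889 to 12236 genes that reached 1 TPM in each. TPM keeps no read depth, so depth is unknown here, and counting intervals or floors could not be given. Anxa10 was listed at 0 TPM in all 6 libraries, WT included, and so gave no check of the labels. All 6 melanocyte markers were present, with Tyrp1 at 2430 TPM or more and Pmel at 1247 or more in every library. Of 6 leukocyte markers, Tyrobp and Cd3e were at 0 in every library and Cd68 alone passed the filter, at 2.42 to 4.8 TPM in WT and 0.86 to 1.29 in A10KO. Summed TPM over the 6 was 2.86 to 5.52 in WT and 0.91 to 1.51 in A10KO. Col1a1 was the only fibroblast marker past the filter, and the 5 fibroblast markers summed to 2.98 to 3.44 TPM in WT and 0.83 to 3.13 in A10KO, and endothelial and keratinocyte markers to under 1 TPM in each library. The part of these other markers in the results was not tested. Mitochondrially encoded transcripts took 6.32% to 6.56% of TPM in WT and 7.93%, 14.7% and 7.37% in A10KO 1, 13 and 14.

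Histone RNA was a small part of every library, and there was less of it in each A10KO library than in any WT library. Summed over the 70 genes, it came to 201.14, 180.72 and 177.3 TPM in WT 1, 2 and 3, and to 137.21, 82.74 and 111.63 TPM in A10KO 1, 13 and 14. The groups did not overlap, and A10KO 13 was lowest. Of all single genes tested, 11.5% were likewise lower in A10KO without overlap. Mean and SD were 186 ± 12.9 TPM for WT and 111 ± 27.3 TPM for A10KO, with n = 3 in each group here and below. The whole family stood below the single gene H2afz, a replication-independent histone at 1005 ± 44.2 TPM in WT. In bulk RNA, fewer cells carrying a transcript and less of it per cell cannot be told apart. A10KO 13 was also the library with the largest mitochondrial share. Without Hist1h2bc the sums were 163.81, 134.47 and 135.94 TPM in WT and 110.11, 68.81 and 99.12 in A10KO, which again did not overlap.

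In TPM the difference lay mostly in the H2a and H2b classes, which also had the highest mean sums in WT (65.6 and 60.5 TPM). Relative to its level, the H1 sum fell more than that of H2a. The mean went from 17.3 to 8.45 TPM for H1 and from 65.6 to 40.9 TPM for H2a. H2b sums were 69.12, 61.37 and 51.08 TPM in WT and 35.55, 19.33 and 23.99 in A10KO. In WT 1 this sum included 23.38 TPM of Hist1h2be, which was at 0.38 TPM or less in every other library. H2a sums were 58.33, 61.67 and 76.66 TPM in WT and 47.72, 35.55 and 39.46 in A10KO. In both classes each A10KO library was below each WT library. H1 sums, 16.57, 22.19 and 13.06 TPM in WT against 14.34, 5.31 and 5.71 in A10KO, overlapped through A10KO 1. H4 sums overlapped as well, at 38.65, 24.01 and 26.66 TPM in WT and 25.82, 12.34 and 30.59 in A10KO. H3 sums lay closest together, at 18.47, 11.48 and 9.84 TPM in WT and 13.78, 10.21 and 11.88 in A10KO. No test was made of these sums, since the classes were described with earlier results known.

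**Figure D1:**
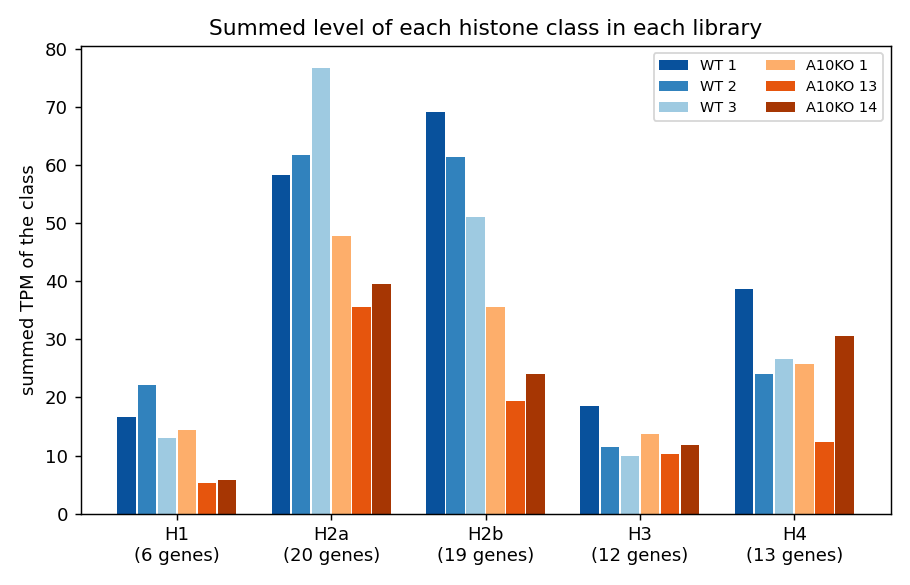
Summed TPM of all genes of each histone class (x axis, with the number of genes) in each of the 6 libraries (bars from 0, blue for WT and orange for A10KO). The H2b bars run from 51.08 to 69.12 TPM in WT and from 19.33 to 35.55 in A10KO, whereas the H3 bars of the groups overlap. The H2b bar of WT 1 includes 23.38 TPM of Hist1h2be, a gene high in that library only.

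Of the 70 genes, 23 reached 1 TPM in at least 3 of the 6 libraries and entered the test, 1 for H1, 7 for H2a, 3 for H2b, 5 for H3 and 7 for H4. A further 26 were above 0 in at least 1 library without meeting that filter, and 21 were listed at 0 in all 6. The 21 were Hist1h1a and Hist1h1b, 6 H2a, 7 H2b, 2 H3 and 4 H4 genes. The filter could be met through 1 group alone. Of the tested members, 5 reached 1 TPM in all 3 WT libraries and in fewer A10KO libraries (Hist1h2ae, Hist1h4a, Hist1h4c, Hist1h4d and Hist2h2aa2), and 2 did so in all 3 A10KO and in fewer WT libraries (Hist1h2bg and Hist1h3g). Directions and medians over the tested members carry that selection. Of the 23, 11 were at 1 TPM or more in every library. At the edge of the filter stood Hist2h3c2, tested with a mean of 0.925 TPM over the 6 libraries, and Hist1h2ab, left out with a mean of 1.42. Per library, between 18 and 29 members reached 1 TPM, with 29 in WT 1, 23 in WT 2, 20 in WT 3, 19 in A10KO 1, 18 in A10KO 13 and 25 in A10KO 14.

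A10KO was compared with WT by limma on log2(TPM + 1) over all 12068 genes that met the filter, with Benjamini-Hochberg adjustment over all of them. Log2 changes are A10KO minus WT on that scale, on which changes of low genes come out too small. Of the 23 tested members 0 passed an adjusted p of 0.05, against 0.0414% of all genes tested (5 genes). At an unadjusted p under 0.05, 4 members were lower, Hist1h2bc, Hist3h2a, Hist1h4c and Hist1h1c, against 6.27% of all genes tested, and 0 were higher, against 2.56%. Hist1h4c met the filter through its WT libraries. The groups did not overlap for 3 members lower in A10KO (Hist1h2bc, Hist3h2a and Hist2h2aa2), against 11.5% of all genes, and for 0 higher, against 5.61%. A share of 3 in 23 is close to that background. The log2 change was below 0 for 16 of the 23, against 56.5% of all genes, and its median was -0.45 against -0.04 over all genes tested. By class it was -1.16 for the single H1 gene, -0.90 for H2a, -0.73 for H2b, 0.06 for H3 and -0.47 for H4. These class medians rest on few genes and moved with the settings. With no filter they were -0.14 for H1, -0.35 for H2a, -0.18 for H2b and -0.28 for H4, and with array quality weights -0.41 for H2b and -0.15 for H4. At 5 TPM the H2b and H4 values were -1.25 and -0.28. Leaving out A10KO 13 or 14 gave -0.59 or -0.58 for H2a, and leaving out WT 1 gave -0.18 for H4. The overall median was -0.18 over 49 members with no filter and -0.90 over 9 with a filter of 5 TPM.

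**Figure D2:**
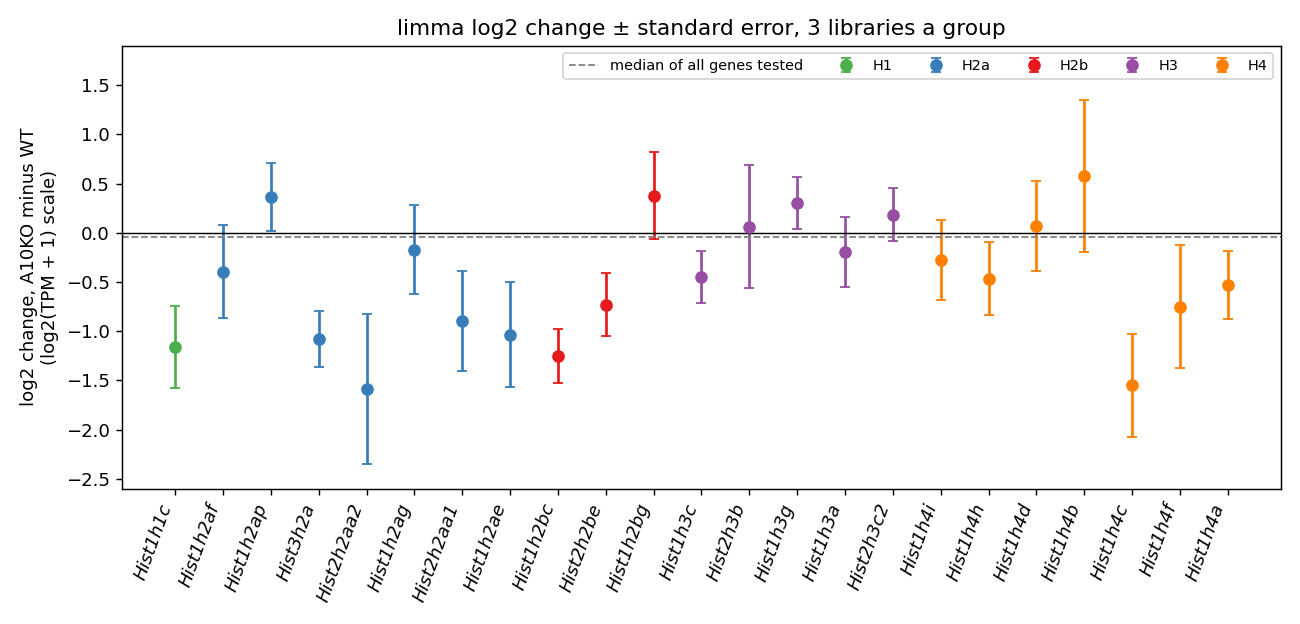
Log2 change (A10KO minus WT, log2(TPM + 1) scale) with its standard error from limma for the 23 tested histone genes, coloured by class, with the median of all genes tested as a dashed line. Hist1h2bc lies at -1.25 with a short error bar, and Hist2h2aa2 at -1.59 with a long one.

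The H2b class turned on Hist1h2bc (ENSMUSG00000018102, GRCm38 chromosome 13, 23684199 to 23692908, plus strand), which encodes a core histone of the H2b class. It stood at 37.33, 46.25 and 41.36 TPM in WT 1, 2 and 3 and at 27.1, 13.93 and 12.51 TPM in A10KO 1, 13 and 14. All A10KO values lay below all WT values, with A10KO 1 nearest to WT. The mean went from 41.6 ± 4.47 to 17.8 ± 8.05 TPM, a ratio of WT to A10KO of 2.33 (log2 change -1.25, SE 0.28, limma adjusted p = 0.259), which did not pass the threshold. Over the alternatives the limma adjusted p of Hist1h2bc ran from 0.0507 to 0.909. With mitochondrial genes removed its log2 change was -1.20. Hist1h2bc alone made up 18.6% to 25.6% of all histone TPM in WT and 11.2% to 19.8% in A10KO.

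The other H2b genes were far lower. Hist2h2be (chromosome 3, 96221119 to 96223738), also an H2b gene and with no 50-base stretch shared with another gene, stood at 3.44, 7.45 and 4.97 TPM in WT and 2.35, 1.85 and 4.12 in A10KO. These groups overlapped, and the change was -0.73 (limma adjusted p = 0.566). Hist1h2bg (chromosome 13, 23571396 to 23572013) stood at 0.84, 3.02 and 0.77 TPM in WT and 4.22, 1.27 and 1.43 in A10KO. Hist1h2be (chromosome 13, 23583670 to 23621124) was set apart by a single library. It was listed at 23.38 TPM in WT 1 and at 0.38, 0.27, 0.25, 0.03 and 0.26 TPM in WT 2, WT 3 and A10KO 1, 13 and 14. It did not meet the filter, and without it WT 1 would not hold the highest H2b sum. The annotated extent of Hist1h2be overlaps that of the H1 gene Hist1h1e (chromosome 13, 23620629 to 23622558), and 23.8% of the 50-base windows of Hist1h1e were shared with it. Hist1h1e itself was at 0.76 TPM or less in every library except WT 1 (1.43) and A10KO 13 (1.05).

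Among H2a genes, Hist3h2a (ENSMUSG00000078851, chromosome 11, 58954685 to 58956830) differed most clearly from its spread. It was at 8.12, 13.98 and 11.48 TPM in WT and at 4.85, 3.15 and 6.46 TPM in A10KO, so that the groups stood apart. The means were 11.2 ± 2.94 and 4.82 ± 1.66 TPM (log2 change -1.08, SE 0.28, limma adjusted p = 0.339). Its annotated transcript runs 1643 bases past the stem-loop, and 31.5% of its 50-base windows also lie in Trim17, which was at 0.08 TPM or less in every library. Hist2h2aa2 and Hist2h2aa1 are copies on chromosome 3 (96239749 to 96240276 and 96245497 to 96246082). Neither has a 50-base window of its own. All windows of Hist2h2aa2 also lie in Gm20632, and all those of Hist2h2aa1 in Gm20633, which are not members and were left out of sums. Hist2h2aa2 was at 9.87, 13.31 and 10.18 TPM in WT and 5.44, 0 and 8.88 in A10KO, whereas Hist2h2aa1 was at 2.92, 7.31 and 6.98 TPM in WT and 1.49, 6.32 and 1.2 in A10KO. In A10KO 13 the listed 0 of Hist2h2aa2 thus stood beside 6.32 TPM for its copy. Added together, with the pseudogene Hist1h2al at 0, they gave 12.79, 20.62 and 17.16 TPM in WT and 6.93, 6.32 and 10.08 in A10KO, again apart. Their single log2 changes were -1.59 and -0.90 (limma adjusted p = 0.597 and 0.661). The value of Hist2h2aa2 rested on the listed 0, since it was -0.59 without A10KO 13, -0.80 with array quality weights and -2.70 with a pseudocount of 0.1.

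The remaining H2a genes did not separate the groups. Hist1h2af (chromosome 13, 23533906 to 23534304) stood at 9.44, 8.11 and 25.87 TPM in WT and 13.53, 11.35 and 5.23 in A10KO. Its WT mean rested on WT 3, and its log2 change of -0.40 became 0.09 without that library, -0.03 without A10KO 14, -0.69 without WT 2, -0.64 without A10KO 1 and -1.22 with array quality weights. Only 6.0% of its windows were found in no other gene. Summed with the 6 other genes linked to it by shared sequence, its group gave 13.13, 13.79 and 26.44 TPM in WT and 15.03, 12.61 and 7.24 in A10KO. Hist1h2ap (chromosome 13, 21833026 to 21833507) went the other way, with 8.88, 3.49 and 9.95 TPM in WT and 9.81, 10.32 and 7.51 in A10KO (log2 change 0.37, limma adjusted p = 0.784). Its low value in WT 2 set that direction, since the change was -0.04 without WT 2, and it was -0.10 with array quality weights and 0.61 without WT 3. Its copy Hist1h2ao, with which it shares 93.1% of its windows, was at 0 in all 6 libraries. Hist1h2ae, at 0.65 to 8.47 TPM, and Hist1h2ag, at 1.48 to 6.4 TPM, also overlapped between the groups.

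**Figure D3:**
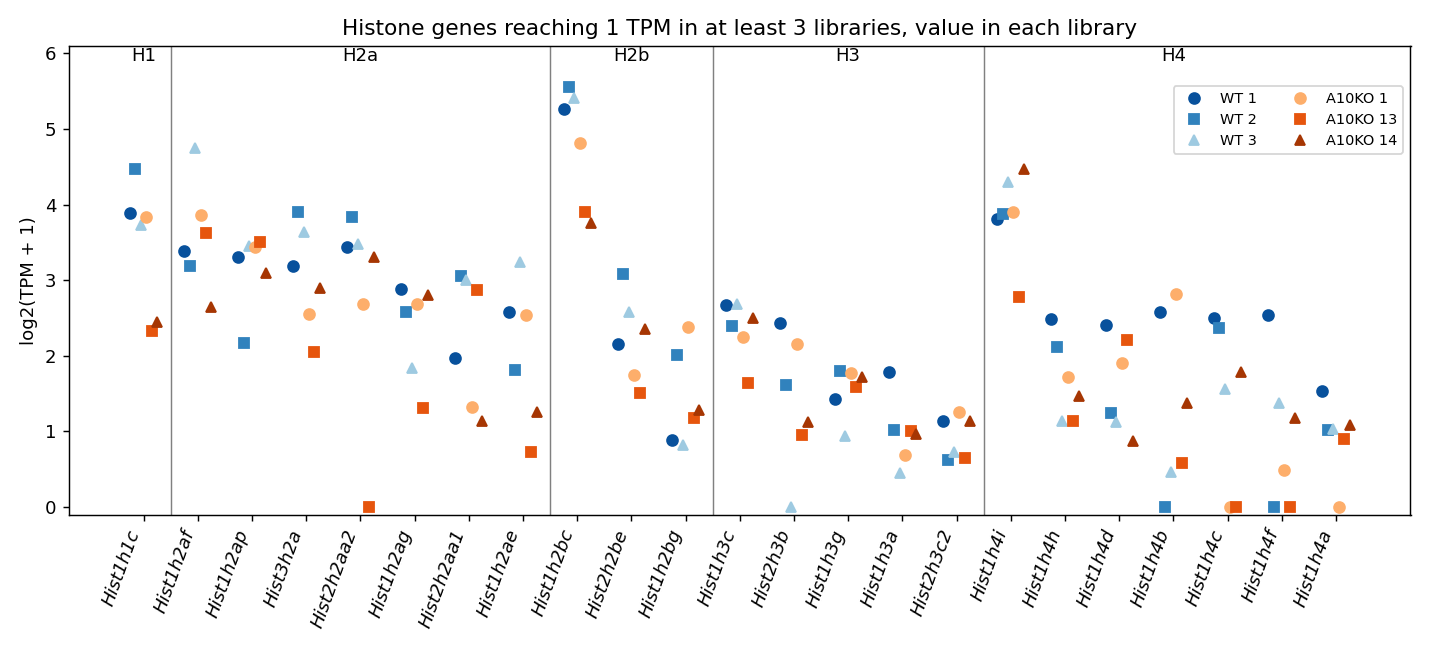
Level of the 23 tested histone genes in each library (y axis, log2(TPM + 1)), ordered by class and by mean level within the class, with blue symbols for WT and orange for A10KO. The orange symbols of Hist1h2bc, Hist3h2a and Hist2h2aa2 all lie below the blue ones, and in the H4 class several symbols lie at 0.

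The linker histone H1 was represented by Hist1h1c (ENSMUSG00000036181, chromosome 13, 23738808 to 23740367), the only H1 gene that met the filter. Hist1h1c was at 13.88, 21.21 and 12.29 TPM in WT and at 13.33, 4.03 and 4.46 TPM in A10KO. A10KO 13 and 14 lay below every WT library, while A10KO 1 lay within the WT range. The log2 change was -1.16 (SE 0.42, limma adjusted p = 0.502). Of its 50-base windows 91.5% were found in no other gene, and its annotated transcript runs 840 bases past the stem-loop. The other H1 genes were at 1.43 TPM or less in every library, and Hist1h1t, an H1 gene known from the testis, was at 0.43 TPM or less.

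H3 genes were low and showed no common direction. Hist1h3c (chromosome 13, 23744973 to 23745602) had the highest mean, at 5.35, 4.25 and 5.43 TPM in WT and 3.77, 2.11 and 4.64 in A10KO (log2 change -0.45, limma adjusted p = 0.666, and -0.21 without A10KO 13). Hist2h3b (chromosome 3, 96268654 to 96269141) ranged from 0 to 4.4 TPM within WT alone, at 4.4, 2.05 and 0, and stood at 3.47, 0.93 and 1.18 TPM in A10KO. Its log2 change of 0.06 had no stable sign, running from -0.61 without WT 3 to 0.61 without WT 1. The other tested H3 genes, Hist1h3g, Hist1h3a and Hist2h3c2, lay between 0.36 and 2.49 TPM. Of the 5 tested H3 genes 2 had a log2 change below 0 and 3 above, and the median of 0.06 became -0.40 without WT 3, -0.10 without A10KO 1 and 0.32 without WT 1.

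H4 genes encode the same short core histone many times over, and their values scattered between libraries of a group. Hist1h4i (chromosome 13, 22040636 to 22041362) was the leading H4 gene, at 12.97, 13.71 and 18.75 TPM in WT and 14.01, 5.85 and 21.28 in A10KO. A10KO held its highest and its lowest value, and the log2 change of -0.28 (limma adjusted p = 0.860) became 0.20 without A10KO 13, -0.65 without A10KO 14, -0.12 without WT 3 and -0.05 with array quality weights. Hist1h4c (chromosome 13, 23697635 to 23698454) was at 4.67, 4.16 and 1.95 TPM in WT and at 0, 0 and 2.44 TPM in A10KO (log2 change -1.55, limma adjusted p = 0.475). Hist1h4h was at 4.61, 3.32 and 1.19 TPM in WT and 2.3, 1.2 and 1.76 in A10KO, with a log2 change of -0.47. That change was -0.18 without WT 1, -0.86 without WT 3 and -0.05 with array quality weights. Hist1h4b was at 4.99, 0 and 0.38 TPM in WT and 6.05, 0.5 and 1.6 in A10KO, so that WT 1 and A10KO 1 stood out. Of the 23 tested members 6 were listed at 0 in at least 1 library, and 4 of them were H4 genes.

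Near-identical copies limited what a single gene's value means. RSEM is named in the submitters' processing notes and can share reads among copies, but how it was set is not given in the sources used here. Windows of 50 bases from each member's longest transcript were looked up in all other transcripts on both strands. Among the 23 tested members a median of 53.0% of windows were found in no other gene, 9 members were under 50%, and 3 had no such window (Hist2h2aa1, Hist2h2aa2 and Hist2h3b). All windows of these 3 also lie in genes that are not members (Gm20633, Gm20632 and Gm20628). The closest member shared 89.2%, 100% and 79.7% of their windows. Among the 20 matched members at 0 in every library the median was 22.8%, and 15 were under 50%. Hist1h1a and Hist1h1b were also at 0, although 100% of their windows were their own. Of the 14 tested members with at least 50% of windows of their own, 12 had a log2 change below 0 (median -0.63), and of the 9 under 50%, 4 did (median 0.06). The difference between these subsets was not tested.

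**Figure D4:**
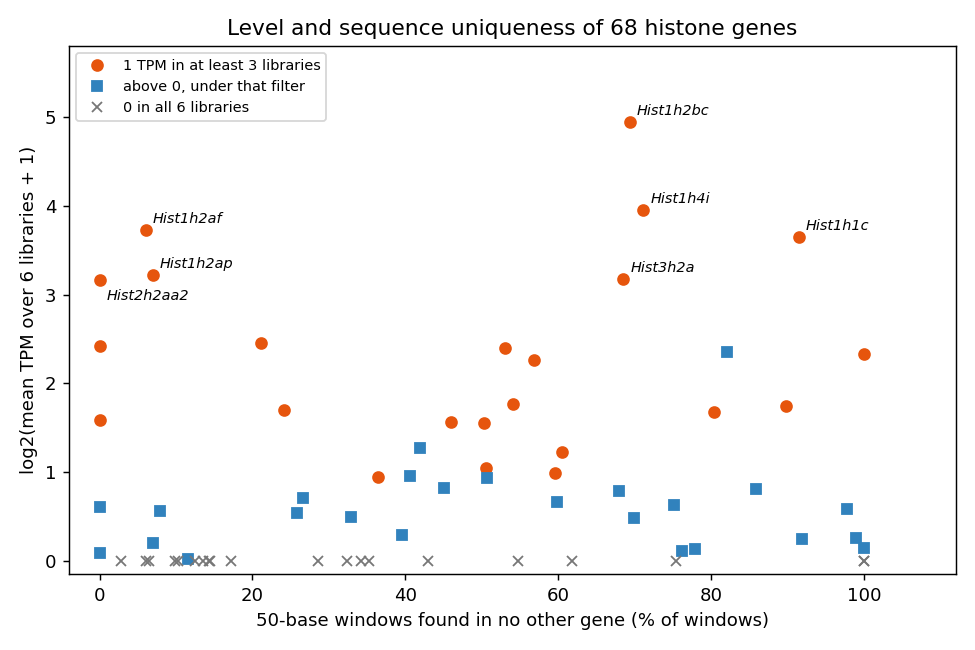
Mean level over the 6 libraries (y axis, log2(mean TPM + 1)) against the share of 50-base windows found in no other gene (x axis, percent) for the 68 matched histone genes, with orange circles for the 23 tested, blue squares for those above 0 but under the filter and grey crosses for those at 0 throughout. Hist1h2bc, Hist1h4i, Hist1h1c and Hist3h2a combine a high level with at least 68.5% of windows of their own, whereas Hist1h2af and Hist1h2ap are high with under 7%.

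The annotated 3′ end was also set beside the values. In 17 of the 68 matched members a transcript carried AATAAA or ATTAAA, the letters of the usual poly(A) signal, within its last 40 bases on the coding strand, and 7 of these 17 were tested. Those 7 were Hist1h1c, Hist1h2ae, Hist1h4a, Hist1h4h, Hist1h4i, Hist2h2be and Hist3h2a. All 7 had a log2 change below 0 (median -0.73), against 9 of the 16 tested members without it (median -0.18), and 2 of the 7, Hist1h2ae and Hist1h4a, met the filter through WT. Hist1h2bc was not among the 7. Of the members with a match to the stem-loop pattern in the transcript 19 of 44 were tested, and of those without a match 4 of 24. These counts follow the annotation and were not tested.

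Many H2a and H2b genes lie head to head and share the sequence between their starts. There were 13 such pairs with starts 173 to 306 bases apart. Both genes were tested in 1 pair, 1 gene in 5 pairs and neither in 7. Hist1h2bc starts 251 bases from Hist1h2ac, the window printed above, and stood at 41.6 ± 4.47 TPM in WT against 1.26 ± 1.72 for Hist1h2ac. In A10KO they stood at 17.8 ± 8.05 and 0.253 ± 0.230. In the pair with both tested, Hist1h2ae stood at 4.97, 2.5 and 8.47 TPM in WT and 4.84, 0.65 and 1.39 in A10KO, and Hist1h2bg at the values given above. The means of Hist1h2ae and Hist1h2bg differed in opposite directions, with overlapping groups for both. Hist2h2be, at 5.29 ± 2.02 TPM in WT, lies 239 bases from Hist2h2ac, at 0.897 ± 0.371.

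By position, 54 of the matched members lie on chromosome 13, 10 on chromosome 3, 3 on chromosome 11 and 1 on chromosome 6. Genes named Hist1 summed to 168.62, 133.03 and 140.36 TPM in WT and 117.38, 68.26 and 86 in A10KO. Genes named Hist2 summed to 23.62, 32.51 and 25.04 TPM in WT and 14.77, 11.21 and 17.79 in A10KO, and those named Hist3, nearly all Hist3h2a, to 8.65, 15.01 and 11.73 TPM in WT and 4.85, 3.15 and 7.65 in A10KO. In each of these locations every A10KO library was below every WT library, as were 11.5% of all single genes tested. The sums by class, by location and without Hist1h2bc divide the same 70 genes in overlapping ways, so they are not separate results. Hist4h4 on chromosome 6 was at 0.25 TPM or less throughout.

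The machinery that makes histone RNA showed no called change, where only 0.0414% of all genes tested were called. In lists this short, here and below, a count of 0 therefore says little about the list. Of 10 genes for histone gene transcription, all tested, 0 passed in either direction and the median log2 change was 0.15. Npat, the coactivator of histone genes, was at 4.05, 7.11 and 4.65 TPM in WT and 4.75, 7.71 and 5.03 in A10KO. Casp8ap2, a scaffold of the histone locus body also named FLASH, was at 6.38, 8.27 and 6.77 TPM in WT and 5.53, 17.53 and 7.01 in A10KO. Cdk2, whose kinase acts on NPAT, was at 210 ± 26.9 and 184 ± 40.4 TPM, and its partner cyclin gene Ccne1 at 83.2 ± 9.37 and 72.6 ± 8.48.

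Of 12 genes for 3′ end processing 11 were tested and 0 passed, with a median of 0.01. Slbp, which encodes the stem-loop binding protein, was at 63.87, 60.14 and 62.6 TPM in WT and 56.24, 111.29 and 78.33 in A10KO (log2 change 0.34, limma adjusted p = 0.724). Slbp was thus highest in A10KO 13, the library with the lowest histone sum. Of the transcription genes, Casp8ap2, Npat, Hinfp and Ccne2 were also highest there, whereas Cdk2, at 147.24 TPM, was lowest there. A link of these values to the histone sum was not tested. Lsm10 and Lsm11 encode the proteins particular to the U7 particle. Lsm11 was at 7.4, 9.36 and 6.8 TPM in WT and 6.51, 4.28 and 5.83 in A10KO, which did not overlap (log2 change -0.44, limma adjusted p = 0.604), and Lsm10 was at 36.5 ± 1.88 and 29.5 ± 6.86 TPM. Of the 11 tested processing genes, 1 was lower in A10KO without overlap, against 11.5% of all genes tested. Likewise 1 was higher without overlap, against 5.61%. Among 7 genes for translation and decay of histone RNA 0 passed (median 0.12), and Upf1, a helicase of RNA decay, was at 50.3 ± 5.08 and 58.0 ± 6.18 TPM. Among 16 genes for histone chaperones and import 0 passed (median -0.09), with Nap1l1 at 371 ± 20.2 and 358 ± 28.5 TPM. Of these 16, 12 had a log2 change below 0, against 56.5% of all genes tested. Without overlap 3 were lower in A10KO, against 11.5%, and 0 were higher, against 5.61%. At an unadjusted limma p under 0.05, 1 was lower, against 6.27%.

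Histone genes that are expressed outside DNA replication and S phase genes were set beside the members. Of 11 replication-independent histone genes 10 were tested and 0 passed, but all 10 had a log2 change below 0, with a median of -0.31. H2afy, which encodes macroH2a, was at 147.65, 155.5 and 148.05 TPM in WT and 103.91, 89.96 and 138.02 in A10KO (log2 change -0.46, limma adjusted p = 0.502). H3f3b, an H3 variant gene, was at 495 ± 71.1 and 434 ± 67.5 TPM. Of the 10 tested, 3 were lower in A10KO without overlap, against 11.5% of all genes tested. At an unadjusted limma p under 0.05, 2 were lower, against 6.27%. The summed level of the list, 3009 to 3320 TPM in WT and 2599 to 3061 in A10KO, overlapped between the groups through A10KO 14. The sum of the replication-dependent genes did not overlap, but lower values in A10KO were seen in both lists. Of 20 S phase genes 0 passed and the median was -0.06. Pcna, the sliding clamp of DNA replication, was at 371 ± 31.8 and 367 ± 82.8 TPM, and Rrm2, a subunit of ribonucleotide reductase, at 196 ± 5.47 and 237 ± 91.1.

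By library, the median deviation of the 23 tested members from the WT mean was 0.09, 0.14 and -0.11 in WT 1, 2 and 3 and -0.19, -0.77 and -0.22 in A10KO 1, 13 and 14. A10KO 13 was the lowest of the 6 libraries for 8 of the 23 members, against 24.2% of all genes tested. The same held for 6 of 10 replication-independent histone genes, 9 of 20 S phase genes and 7 of 16 chaperone and import genes. It held for 1 of 10 transcription genes, 3 of 11 processing genes and 0 of 7 translation and decay genes. The medians of the replication-independent histone genes in A10KO 1, 13 and 14 were -0.36, -0.63 and -0.06, so a low A10KO 13 was not particular to the members. The S phase medians in A10KO were -0.13, -0.20 and 0.09, and the mitochondrial medians 0.50, 1.21 and 0.25. A10KO 13 was farthest from 0 in each of these lists. RNAs known to lack a poly(A) tail also differed between libraries. Over 7 tested RNAs of that list, in which Neat1 also has a polyadenylated form, the medians were 0.51, 0.53 and -1.04 in WT and -0.32, -0.53 and -0.84 in A10KO. Rmrp, an RNA of a ribonuclease particle, ran from 10.35 to 122.39 TPM in WT and from 1.79 to 18.76 in A10KO. WT 3, the lowest of all in that list, had a histone sum of 177.3 TPM, close to that of WT 2. The part of tail-less RNA content, of mitochondrial share and of A10KO 13 in the histone values was not tested. The 2 alternative fits below show only how the values moved. Neither can decide these questions, since one drops a library and the other only rescales each library. With A10KO 13 left out the median log2 change of the members was -0.32 and 15 of the 23 were below 0. With mitochondrial genes removed and the rest rescaled, the median was -0.43 and 17 of 24 tested members were below 0.

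**Figure D5:**
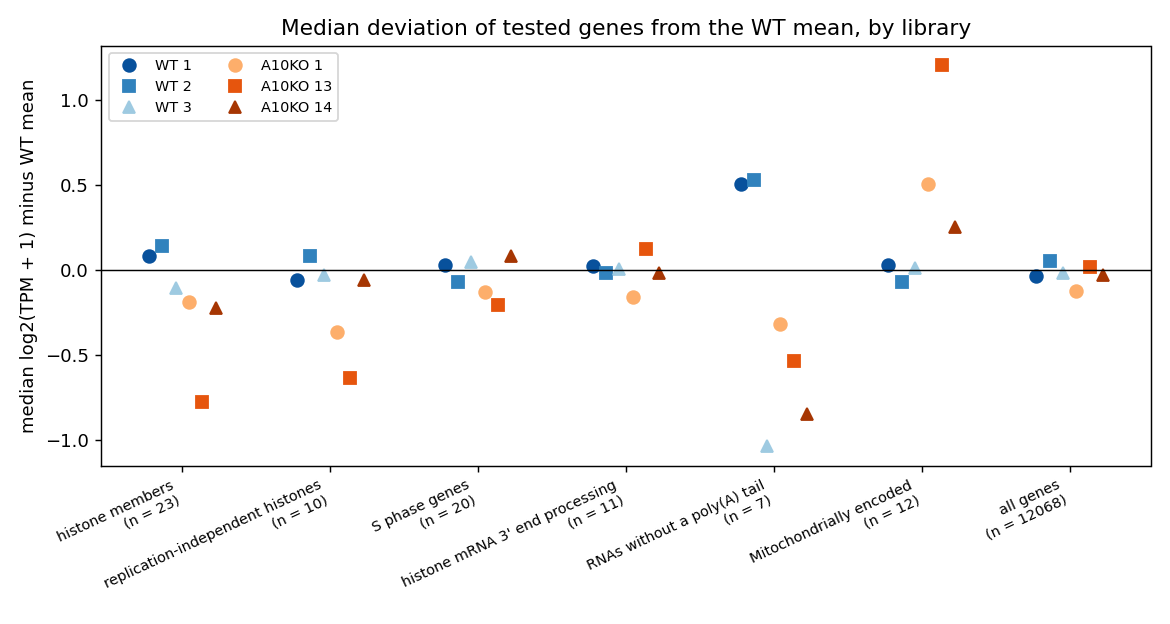
Median difference from the WT mean on the log2(TPM + 1) scale (y axis) over the tested genes of each list (x axis, with their number) in each library, blue for WT and orange for A10KO. Histone members reach -0.77 in A10KO 13, where mitochondrially encoded transcripts reach 1.21, while the 3′ end processing genes stay between -0.16 and 0.12.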

How the data were processed

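RNA sequencing values of 6 B16F10 libraries were analysed, 3 WT and 3 A10KO, grouped by the sample titles. The deposited table is presented as raw counts but holds TPM, since its columns are fractional and sum to nearly equal totals. The submitters' processing notes name fastp, HISAT, RSEM and build GRCm38.p5; versions, settings and strand were not given in the sources used here. The separate table of each library was identical to the joint table for all 6. The fit was limma 3.58.1 in R 4.3.3 with a mean-variance trend, on log2(TPM + 1), over genes reaching 1 TPM in 3 or more libraries, 2-sided, on all 6 libraries without covariates. It was run on simulated data in which both groups had the WT spread and only genes of higher level were changed. That run does not show how the fit does for low members or for the A10KO spread. Alternatives were a pseudocount of 0.1, no filter, a filter of 5 TPM, trimmed-mean and median-of-ratios scaling, removal of mitochondrial genes, array quality weights, and leaving out each library. TPM keeps no depth, so precision rests on the spread between libraries alone.

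Named members were Hist1h2bc, those with a mean of at least 5 TPM and at least 2 with the highest mean in each class. Any further members, and H2afy and Rmrp, were picked once values had been seen. From the other lists, genes with high means and named parts of the histone machinery were given. The members and lists were chosen with earlier results of these data known. Copies were linked where a member shared at least 50% of its 50-base windows with another. Identifiers of Hist1h2bh and Hist1h2bm were not matched in GENCODE M21. Promoters were matched through RefSeq synonyms and start sites; that of Hist1h3c, the H3 member with the highest mean, was not printed because it covers annotated transcript.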

Additional observations from a re-analysis of the deposited data

How the results depend on the processing

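The count of called histone members was 0 under all 13 alternatives, and Hist1h2bc stayed lower in A10KO and short of the threshold in each, with log2 changes from -1.58 to -1.05 when a library was left out. The median over tested members was -0.90 with a filter of 5 TPM, where only 9 members remained to be tested, and ran from -0.61 to -0.32 when a library was left out. The count over all genes, 5, was 25 with array quality weights and ran from 2 to 8 when a library was left out, with 2 without WT 1 or WT 2, 3 without WT 3 and 8 without A10KO 1. Of 114 values of other named members under the alternatives, 6 changed sign. These were Hist1h2ap with array quality weights (-0.10) and, when a library was left out, Hist1h2ap (from -0.037 to 0.61), Hist1h4i (from -0.65 to 0.20), Hist1h2af (from -0.69 to 0.090) and Hist2h3b (from -0.61 to 0.61, with -0.31 without A10KO 1). The cause was not tested. No paired analysis was possible because the groups share only 1 replicate number. With depth unknown, a listed 0 does not show that a gene was silent.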
